A study of Mus musculus with 2 samples.

Results

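Nuclear genes for the respiratory chain were examined in single cells of the newborn mouse hypothalamus. The genes were the rows of the deposited table whose symbols begin with Nduf and a letter, Sdha to Sdhd, Uqcr, Cyc1, Cox4i, Cox5, Cox6, Cox7, Cox8 or Atp5, and which held at least 30 UMIs (unique molecular identifiers, each marking 1 captured RNA molecule) over all barcodes. The rule found 100 of 24905 genes. By their known roles, 79 of these encode subunits (36 of complex I, 4 of complex II, 9 of complex III, 15 of complex IV and 15 of complex V), 14 encode assembly or associated factors that share the symbol prefix, and 7 are pseudogene rows. The rows just below the limit were Cox7a1 with 24 UMIs and Ndufa4l2 with 13 UMIs, and those just above it were Atp5l-ps1 with 37 UMIs and Atp5l2-ps with 41 UMIs.

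The respiratory chain sits in the inner mitochondrial membrane. Complexes I and II take electrons from NADH and succinate, complex III passes them through cytochrome c to complex IV, which reduces oxygen, and complex V, the ATP synthase, uses the resulting proton gradient to make ATP. Most subunits are nuclear genes that are active in almost every cell, but a few complex IV subunits exist as a widespread form and a form best known from heart and skeletal muscle, such as Cox6a1 and Cox6a2. Neurons draw most of their ATP from this chain.

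Cells came from CD-1 pups of postnatal days 1 to 4. Both groups carried Sim1-Cre, a recombinase driven from Sim1, and 1 copy of a tdTomato reporter (Ai14) that stays on in the descendants of cells that used Cre. The control library (Sim1-Cre;tdTomato+/-) and the Sim1 heterozygous, or Sim1-het, library (Sim1-Cre;tdTomato+/-;Sim1+/-, which lacks 1 copy of Sim1) were each pooled from 6 pups by their labels, sorted for tdTomato and profiled by Drop-seq, which counts the 3′ ends of transcripts on barcoded beads. With 1 library per genotype every difference between them compares 2 libraries, not 2 genotypes, and no p-value is given. Ages, litters and sorting cannot be told apart from genotype.

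The control library held 2807 barcodes and 6525080 UMIs, and the Sim1-het library 2476 barcodes and 5397693 UMIs, with 0 barcode sequences in common. After barcodes with fewer than 300 genes were left out, 2806 and 2454 cells remained, with medians of 1772.5 and 1583 UMIs. The levels that follow are from the cells that were not glia-gated by the gate set out below. Sim1 itself was at 113 UMIs per 1000000 UMIs (CPM) [95% interval 105 to 122] in the control and 92.4 CPM [84.4 to 101] in the Sim1-het library. Summed markers of pituitary cells stood at 352 and 6.19 CPM, of microglia at 18.9 and 2.81 CPM and of endothelium at 16.2 and 1.31 CPM, and those of fibroblasts had 163 and 16 UMIs, all higher in the control library. Those of the oligodendrocyte lineage stood at 60.4 and 58.7 CPM, of glia at 316 and 365 CPM, and those of red cells had 2 and 5 UMIs. Among the cells left out here, the 37 control and 47 Sim1-het cells in the glia gate alone held 1730 and 2085 UMIs of the glia markers. The cells counted held 2045 and 1949. The cells in the glia gate alone also held 129 and 50 UMIs of the oligodendrocyte lineage markers and 72 and 4 UMIs of the fibroblast markers. The part of such RNA in the results below was not tested.

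Cells were sorted into groups by gates on counts. A cell was Avp-gated or Oxt-gated with at least 10 UMIs of the hormone and more of it than of the other, and gated for Crh, Trh, Foxb1, Neurod6 or Tcf7l2 with at least 2 UMIs of that gene. Glia-gated cells had at least 5 UMIs of 15 glial markers and more of these than of 13 neuronal markers. Cells in more than 1 gate (27 control and 12 Sim1 heterozygous) were kept out of the groups. The gates held 93 control and 23 Sim1-het cells for Avp, 18 and 2 for Oxt, 28 and 38 for Crh, 66 and 44 for Trh, 654 and 866 for Foxb1, 50 and 29 for Neurod6, 113 and 19 for Tcf7l2, and 37 and 47 for glia. A gate names a count, not a proven cell type. Differences between the libraries were taken in the 2767 control and 2403 Sim1-het cells that were not glia-gated.

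Over all cells compared, respiratory chain genes took a slightly smaller part of the RNA in the Sim1-het library, and not every gate showed it. Together the 100 genes stood at 28538 CPM in the control and 26895 CPM in the Sim1-het library, or 2.85% and 2.69% of all UMIs. The log2 ratio of Sim1 heterozygous over control was -0.09 [-0.10 to -0.08], where the interval covers counting error only. All 5 complexes were lower by similar amounts. Complex I stood at 9454 and 8880 CPM (log2 ratio -0.09), complex II at 796 and 730 CPM (-0.13), complex III at 2656 and 2457 CPM (-0.11), complex IV at 8111 and 7676 CPM (-0.08) and complex V at 6605 and 6279 CPM (-0.07). The assembly and associated factors stood at 795 and 775 CPM (-0.04), and their interval, -0.10 to 0.02, held 0.

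Within groups of cells, the sum of the 100 genes had a log2 ratio below 0, with an interval that left out 0, in the Foxb1 gate (-0.08), the Tcf7l2 gate (-0.09) and cells of no gate (-0.13). The intervals held 0 in the Avp (0.04), Trh (0.01), Crh (-0.04), Neurod6 (-0.03), Oxt (-0.20) and glia gates (0.03). Complex I in the Crh gate, at 9572 and 10518 CPM (0.14 [0.0069 to 0.27]), and complex V in the Trh gate, at 6692 and 7349 CPM (0.14 [0.02 to 0.25]), were higher in the Sim1-het library. Complex IV in the Crh gate was lower in that library, at 7876 and 6765 CPM (-0.22 [-0.37 to -0.07]).

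Most of the 100 genes were a little lower, and 3 were past 1.5-fold higher. The log2 ratio was below 0 for 79 of the 100 genes, with a median of -0.09, against a median of 0.04 over the 14486 genes tested (those with at least 30 UMIs) and 0.08 over the protein-coding ones. At least 1.5-fold higher in the Sim1-het library were 3 genes (7.79% of all genes tested passed this limit) and at least 1.5-fold lower were 0 genes (9.33% of all genes tested). Of the 1352 genes that were lower, 814 were pseudogenes. Of the 11354 protein-coding genes tested, 892 were higher and 340 lower. Of the 72 members with at least 1000 UMIs, 1 was higher and 0 were lower, against 2.23% and 1.88% of all genes of that abundance. The members' share of UMIs also went with depth. From the shallowest to the deepest of 4 equal sets of cells it was 2.49%, 2.75%, 2.88% and 2.95% in the control and 2.17%, 2.40%, 2.68% and 2.84% in the Sim1-het library, which held more shallow cells. With cells thinned to 857 UMIs, which kept 2611 of 2767 control and 1814 of 2403 Sim1-het cells and left out the shallower ones, the log2 ratio was -0.09.

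**Figure D1:**
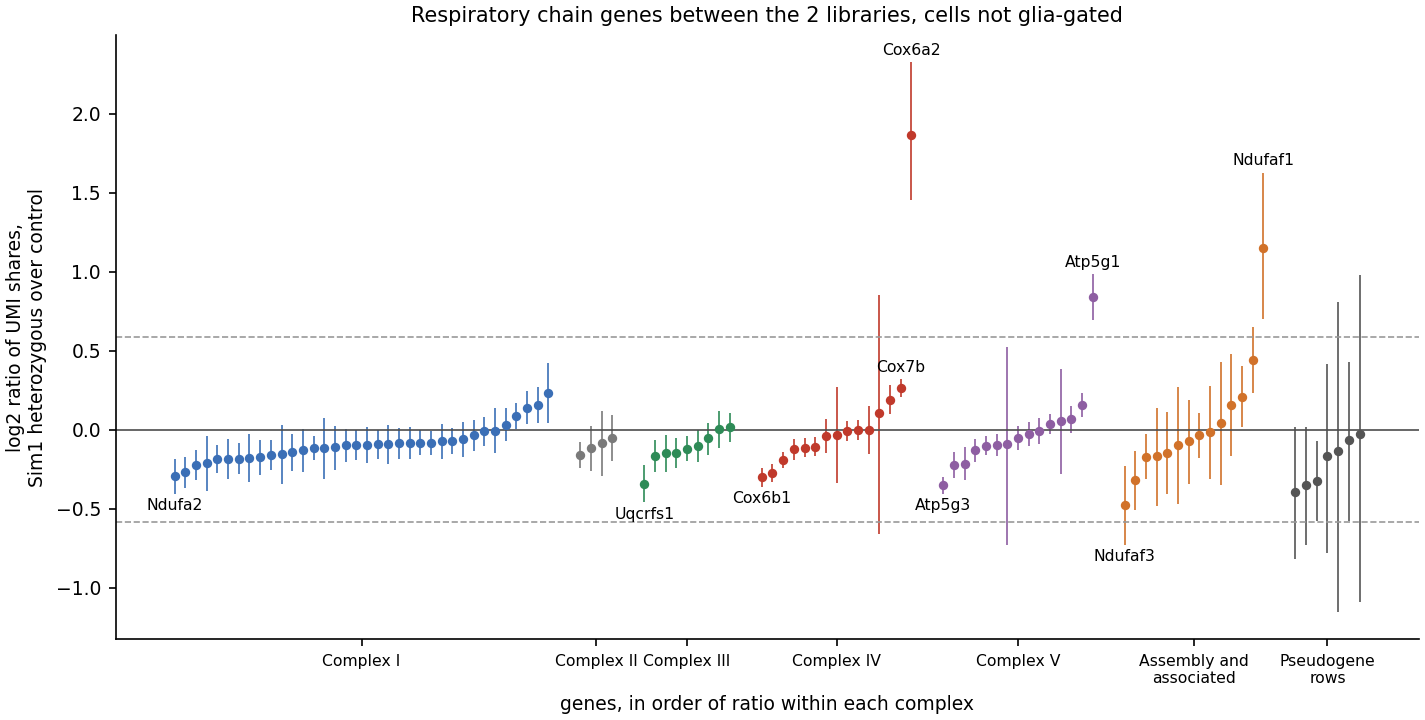
Each point is 1 of the 100 genes, grouped by complex and ordered within it. The vertical axis is the log2 ratio of UMI shares, Sim1 heterozygous over control, with its 95% counting interval, and the dashed lines mark 1.5-fold. Most points lie a little below 0, and Cox6a2, Atp5g1 and Ndufaf1 lie above the upper line.

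In complex I, the NADH dehydrogenase, the 3 genes with the most UMIs were the accessory subunits Ndufc2, Ndufa5 and Ndufa6. Ndufc2 stood at 504 CPM in the control and 476 CPM in the Sim1-het library, Ndufa5 at 506 and 467 CPM, and Ndufa6 at 466 and 440 CPM. A 3′ UMI count marks molecules and does not grow with transcript length, but capture can differ between genes, so such levels are compared between libraries rather than between genes. None of the 36 subunits reached 1.5-fold. They ranged from -0.29 for Ndufa2 (255 and 208 CPM) to 0.23 for Ndufs5 (72.3 and 84.9 CPM). The rise of Ndufs5 turned with the counting of its pseudogene, since with the UMIs of 1 near-identical pseudogene added its log2 ratio was -0.02.

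Complex II, succinate dehydrogenase, has 4 subunits, all nuclear. Its iron-sulfur subunit Sdhb stood at 441 and 395 CPM, the membrane anchors Sdhd at 149 and 137 CPM and Sdhc at 138 and 133 CPM, and the flavoprotein Sdha at 68.3 and 64.3 CPM. All 4 values were lower in the Sim1-het library, and only the interval of Sdhb left out 0. In complex III, which hands electrons to cytochrome c, Uqcrq stood at 481 and 442 CPM, Uqcrb at 331 and 334 CPM and Uqcr10 at 333 and 301 CPM. Its Rieske iron-sulfur protein Uqcrfs1 had the largest difference of the complex, 235 and 185 CPM (log2 ratio -0.34 [-0.46 to -0.23]).

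Complex IV, cytochrome c oxidase, supplied 8 of the 10 subunit genes with the most UMIs, and those 10 genes held 29.8% of all UMIs of the 100. Cox4i1 stood at 1185 CPM in the control and 1037 CPM in the Sim1-het library (log2 ratio -0.19), and Ndufa4, first described in complex I and now counted with complex IV, at 927 and 767 CPM (-0.27). Cox6b1 was lower, at 873 and 708 CPM (-0.30), and Cox7b was higher, at 761 and 914 CPM (0.26 [0.21 to 0.32]). These are shifts under 1.5-fold.

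The muscle-type subunit Cox6a2 differed most between the libraries. The gene lies at chr7:128205435-128206387 on the minus strand (mm10), inside Itgad, an integrin gene on the other strand that had 7 control and 5 Sim1-het UMIs in all. Whether strand was used in counting was not stated, so reads of the overlapping genes may not be told apart. Cox6a2 had 60 UMIs in the control and 182 in the Sim1-het library, or 9.27 CPM [7.07 to 11.9] and 34.1 CPM [29.3 to 39.5]. The log2 ratio was 1.86 [1.45 to 2.33], a 3.64-fold difference. Its widespread counterpart Cox6a1 stood at 710 and 709 CPM (log2 ratio -0.0036 [-0.07 to 0.06]). Cox6a2 was thus 1.29% [0.984 to 1.66] of the UMIs of the pair in the control and 4.59% [3.96 to 5.29] in the Sim1-het library, and Cox6a1 remained by far the main form in both.

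Most Cox6a2 UMIs lay in Foxb1-gated cells. Foxb1 is a transcription factor of mammillary neurons, and the gate took 23.3% of control and 35.3% of Sim1-het cells. These cells held 40 of the 60 control UMIs and 155 of the 182 Sim1-het UMIs of Cox6a2. The level was 27.6 CPM against 3.98 CPM in the other cells of the control library, and 70.8 CPM against 8.59 CPM in the Sim1-het library. The log2 ratios of gated over other cells were 2.596 [1.98 to 3.64] and 2.98 [2.45 to 3.69]. In the Avp, Oxt, Trh, Neurod6 and glia gates neither library had a Cox6a2 UMI. The Crh gate had 0 and 1 UMI, the Tcf7l2 gate 2 and 0, and cells in no gate 18 and 26. The largest groups without a UMI were the Avp-gated cells of the control library, where 0 of 93 cells allows a share of up to 3.23%, and the Trh-gated ones, where 0 of 66 allows up to 4.55%. These limits, from 3 cells of the total, are on cells with a UMI and not on cells that express the gene.

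Within the Foxb1 gate Cox6a2 was also higher in the Sim1-het library. There the log2 ratio was 1.33 [0.85 to 1.90], and the share of the Cox6a pair was 3.32% [2.38 to 4.49] against 8.07% [6.89 to 9.38]. A Cox6a2 UMI was found in 38 of 654 control cells (5.81%) and 122 of 866 Sim1-het cells (14.1%). With cells thinned to 857 UMIs and shallower ones left out, which kept 618 and 762 Foxb1-gated cells, the shares were 2.75% [1.61 to 4.37] and 6.56% [4.91 to 8.56], and in glia-gated cells 0 of 37 and 0 of 24. Foxb1 itself was at 513 and 906 CPM over all cells compared (log2 ratio 0.82), and at 2101 and 2054 CPM in its gated cells, which the gate chose by their Foxb1 UMIs. When groups with at least 20 cells in each library were weighted alike in both, the log2 ratio came to 1.31 in place of 1.86. These were 6 groups, cells in no gate among them. The Oxt gate, the Tcf7l2 gate and cells in more than 1 gate were left out of them.

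Cox6a2 also went with the Foxb1 count of a cell. In control cells it rose from 2.89 CPM at 0 Foxb1 UMIs through 13.7 CPM at 1 and 21.01 CPM at 2 to 3 to 31.3 CPM at 4 or more. In Sim1-het cells the values were 7.44, 14.3, 54.2 and 76.2 CPM. Cox6a2 was higher in the Sim1-het library at 0, at 2 to 3 and at 4 or more Foxb1 UMIs, with intervals that overlapped narrowly at 0 (1.54 to 4.95 and 4.48 to 11.6 CPM), and was about level at 1. The cells with 4 or more Foxb1 UMIs were deeper, with medians of 2198 and 2792.5 UMIs, than those with 0, with medians of 1794.5 and 1386 UMIs.

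**Figure D2:**
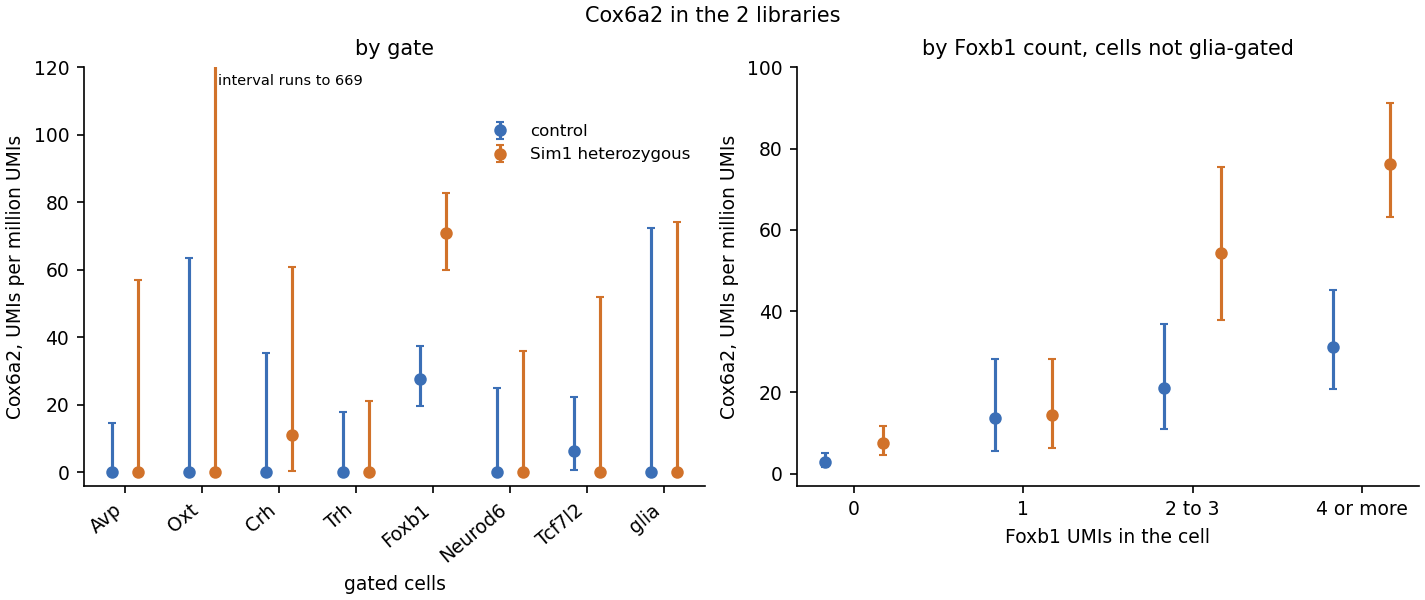
Points give Cox6a2 in CPM with exact 95% Poisson intervals, for the control library (blue) and the Sim1-het library (orange), by gate on the left and by the number of Foxb1 UMIs in a cell on the right. The Foxb1-gated cells stand apart at 27.6 and 70.8 CPM, and the interval of the 2 Oxt-gated Sim1-het cells runs past the axis.

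The summed markers of muscle stood at like levels in both libraries, although 1 of them, Ttn, was higher. All 9 markers of skeletal and heart muscle had a UMI in 1 library or both, their sum was 78.0 CPM in the control and 76.3 CPM in the Sim1-het library, and in Foxb1-gated cells it was 68.9 and 71.7 CPM, below the 80.7 and 79.5 CPM of the other cells. Myoglobin (Mb), a defining marker, had 3 and 0 UMIs, and Des 1 and 1. Of the 4 muscle markers tested, the giant sarcomere gene Ttn was past 1.5-fold, at 3.71 and 8.81 CPM (log2 ratio 1.22). Their part in the Cox6a2 result was not tested. Over the 16 combinations of gate and library, the genes whose levels ranked most like Cox6a2 were Smyd1 (Spearman rho 0.90), Sostdc1 (0.84), Trub1, Tmem132c and Rgs6 (0.78 each), out of 7787 genes with at least 100 UMIs in gated cells. Cox6a2 had no UMI in 12 of the 16 points, so the order rests on few of them, and all points share 2 libraries. Smyd1, a histone methyltransferase of heart and skeletal muscle, had 132 UMIs in gated cells, of which 38 control and 93 Sim1-het UMIs lay in the Foxb1 gate, and Sostdc1 had 114, of which 25 and 81 lay there. Trub1 had 159, of which 48 and 79 lay there, Tmem132c had 150, of which 49 and 83 did, and Rgs6 had 133, of which 39 and 78 did. Each of these genes passed the minimum through the Foxb1 gate, which holds most of its UMIs, so their places are a description of that gate.

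The other muscle-type or restricted forms were rare. Cox6b2, best known from testis, had 206 and 166 UMIs, 3.52% [3.06 to 4.02] and 4.21% [3.60 to 4.88] of the Cox6b pair, and was not gathered in Foxb1-gated cells, where its share was 3.38% and 3.26%. In Trh-gated cells it was 1.12% and 1.45% of the pair, with 2 UMIs in each library, and in Crh-gated cells it had 0 of 98 UMIs and 7 of 57. Cox7b2 had 34 and 30 UMIs. Cox7a1, the muscle form of Cox7a, had 9 and 15 UMIs, against 5219 and 3994 of Cox7a2, and Ndufa4l2 had 6 and 7. Cox4i2 and Cox8b had no row among the genes counted, and Cox8a stood at 698 and 693 CPM.

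In complex V, Atp5f1 of the peripheral stalk stood at 811 and 757 CPM and Atp5c1 of the central stalk at 632 and 648 CPM, while the 3 genes for subunit c did not move together. Subunit c forms the rotating ring in the membrane, and Atp5g1, Atp5g2 and Atp5g3 encode the same mature protein behind different import sequences. Atp5g3 (chr2:73908447-73911326), the main one, had 6515 UMIs in the control and 4207 in the Sim1-het library, or 1007 and 789 CPM (log2 ratio -0.35 [-0.41 to -0.30]). Atp5g1 (chr11:96068852-96075670) had 653 and 964 UMIs, or 101 CPM [93.3 to 109] and 181 CPM [170 to 193], a log2 ratio of 0.84 [0.70 to 0.99]. Atp5g2 had only 52 and 40 UMIs, with an interval from -0.73 to 0.52. All 3 lie on the minus strand. No annotated pseudogene with at least 95% identity over 200 bases of the transcript end was found for Atp5g1 among the genes counted.

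As a share of the 3 genes, Atp5g1 was 9.04% [8.39 to 9.73] in control and 18.5% [17.5 to 19.6] in Sim1-het cells. The difference was spread over the groups rather than gathered in 1 of them. Atp5g1 made up 9.35% of the c subunit UMIs in control and 24.7% in Sim1-het cells of the Crh gate, 10.7% and 18.8% in the Trh gate, 9.40% and 18.1% in the Foxb1 gate, 5.78% and 22.1% in the Neurod6 gate, 8.21% and 29.7% in the Tcf7l2 gate, and 8.62% and 18.5% in cells of no gate. The Avp gate did not show it, at 15.2% [10.5 to 20.9] and 13.7% [5.70 to 26.3], nor did the few cells in more than 1 gate, at 12.3% [5.80 to 22.1] and 6.52% [1.37 to 17.9]. Atp5g1 CPM was higher with an interval above 0 in 6 of the 7 cell groups set side by side, which left out the Oxt gate, the glia and cells in more than 1 gate. Within the Foxb1 gate its level was 102 and 177 CPM (log2 ratio 0.79 [0.52 to 1.08]).

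**Figure D3:**
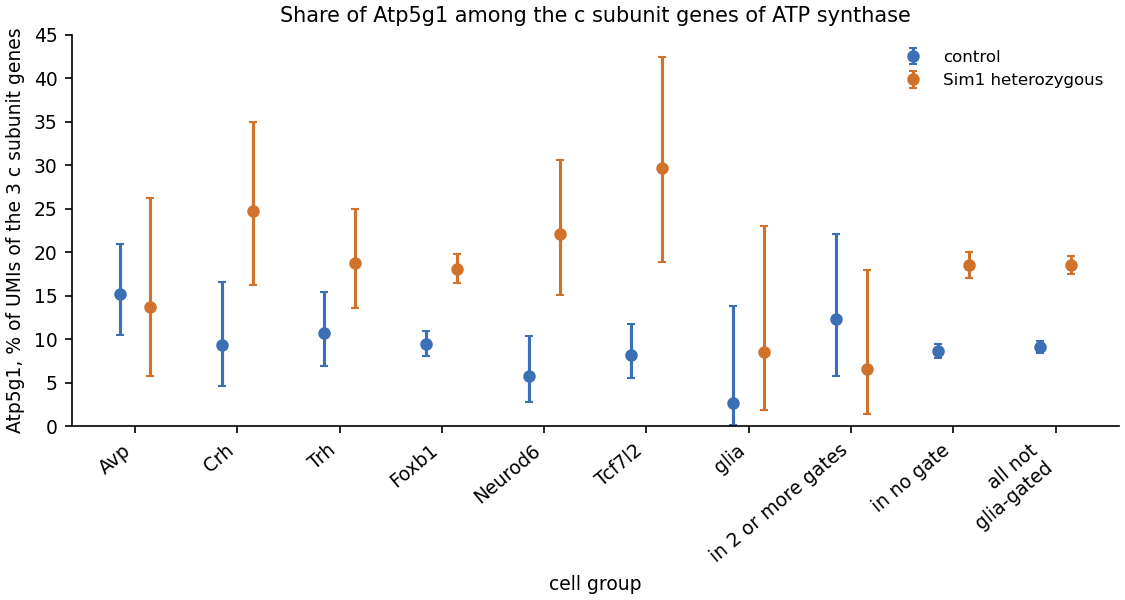
Points give the share of Atp5g1 among the UMIs of Atp5g1, Atp5g2 and Atp5g3 in percent, with Clopper-Pearson 95% intervals, by cell group and library. The Sim1 heterozygous points (orange) lie above the control points (blue) in every group shown other than the Avp-gated cells and the cells in more than 1 gate, and the glia intervals overlap.

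The promoters of Cox6a1, Atp5g1 and Atp5g3, and that of the third gene that was higher, Ndufaf1, are shown as the 250 bases before the RefSeq start (GRCm38.p6, the mm10 build), 5′ to 3′ on the gene's strand, because these genes differ in how they moved. Capitals mark the letters of 4 motifs that were searched on both strands, GCGCATGC for NRF1, CCGGAAG for ETS factors such as GABP, AAGGTCA for estrogen-related receptors and AAGATGGC for YY1, factors known to act on mitochondrial genes. All 4 genes lie on the minus strand, at chr5:115348959-115349208 for Cox6a1, chr11:96075632-96075881 for Atp5g1, chr2:73911327-73911576 for Atp5g3 and chr2:119662835-119663084 for Ndufaf1.
Cox6a1: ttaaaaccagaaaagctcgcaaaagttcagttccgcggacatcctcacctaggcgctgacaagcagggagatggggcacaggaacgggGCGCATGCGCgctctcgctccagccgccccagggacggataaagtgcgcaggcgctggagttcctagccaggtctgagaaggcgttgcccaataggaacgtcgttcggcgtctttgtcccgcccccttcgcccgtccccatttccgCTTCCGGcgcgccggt
Atp5g1: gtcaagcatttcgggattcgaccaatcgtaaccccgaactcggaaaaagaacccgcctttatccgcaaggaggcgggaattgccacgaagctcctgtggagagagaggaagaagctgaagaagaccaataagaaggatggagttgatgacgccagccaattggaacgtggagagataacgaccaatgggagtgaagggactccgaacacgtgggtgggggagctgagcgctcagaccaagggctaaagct
Atp5g3: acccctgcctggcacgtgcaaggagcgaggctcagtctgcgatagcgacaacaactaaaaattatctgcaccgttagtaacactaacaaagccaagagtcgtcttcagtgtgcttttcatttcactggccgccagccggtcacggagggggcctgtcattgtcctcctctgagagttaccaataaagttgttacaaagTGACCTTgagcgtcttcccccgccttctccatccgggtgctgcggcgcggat
Ndufaf1: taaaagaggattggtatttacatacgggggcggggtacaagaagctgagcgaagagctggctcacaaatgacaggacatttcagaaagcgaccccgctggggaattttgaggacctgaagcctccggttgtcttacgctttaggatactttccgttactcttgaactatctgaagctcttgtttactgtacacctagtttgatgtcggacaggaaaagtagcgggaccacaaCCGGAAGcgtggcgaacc
The Cox6a1 stretch held the NRF1 letters, which read on both strands in overlapping places, and an ETS match on the other strand. Atp5g3 held 1 match for estrogen-related receptors, Ndufaf1 held 1 for ETS factors, and Atp5g1 held none of the 4. A match is a string of letters, not a shown binding site.

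Over the members, 76 of 93 genes that are not pseudogenes matched an entry of the promoter table, which covers 300 bases to 50 bases past the start. Cox6a2 had no entry, so its promoter is not shown. Entries on chromosome 18, where Atp5a1 lies, were left out beforehand, for the members and for the genes set beside them. The NRF1 letters were in 12 of these 76 promoters (15.8%), against 6.24% of the 9333 tested genes with a promoter and 3.05% of all 27025 in the table. ETS letters were in 27.6%, against 20.2% and 9.93%, YY1 letters in 13.2%, against 5.46% and 3.19%, and those of estrogen-related receptors in 10.5%, against 3.77% and 5.38%. No motif string contains another. Base composition was not matched between the sets.

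Among the 14 assembly and associated factors, 1 gene was past 1.5-fold, higher in the Sim1-het library, a share near the 7.79% of all genes tested. Ndufaf1, needed to assemble complex I, had 62 control and 114 Sim1-het UMIs, or 9.58 CPM [7.35 to 12.3] and 21.4 CPM [17.6 to 25.7], a log2 ratio of 1.15 [0.70 to 1.63]. In the Foxb1 gate it had 12 and 55 UMIs (8.27 and 25.1 CPM), and in cells of no gate 42 and 52 UMIs (10.9 and 20.1 CPM), so the difference was found in both. The factors with the most UMIs were Ndufaf4 (144 and 140 CPM) and Ndufaf2 (148 and 132 CPM). Ndufaf3 had the lowest ratio of all 100 genes, 56.1 and 40.3 CPM (-0.47 [-0.73 to -0.23]), short of 1.5-fold, and Ndufaf5 stood at 55.2 and 74.8 CPM (0.44). In the Foxb1 gate alone, 3 of 96 members tested were higher in the Sim1-het library (8.86% of all genes tested there), the same Cox6a2, Atp5g1 and Ndufaf1, and 1 was lower (8.03% of all genes), the pseudogene row Atp5k-ps2 with 29 and 27 UMIs.

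The summed level was much alike in the gated groups. For each gate the cells were set against all other cells of the same library that were not glia-gated, and the mean of the 2 log2 ratios is given with its SD (n = 2 libraries). The Trh gate was highest, at 29399 CPM against 28509 CPM in the control and 29622 against 26802 CPM in the Sim1-het library (mean log2 ratio 0.09 ± 0.07). The Crh gate (0.04 ± 0.04), the Foxb1 gate (0.03 ± 0.01) and the Neurod6 gate (0.01 ± 0.04) lay near 0, and the glia gate at -0.04 ± 0.08. The Tcf7l2 gate was lower, 26553 against 28643 CPM and 24990 against 26921 CPM (-0.11 ± 0.0013). Its counting intervals were wider, -0.14 to -0.08 in the control and -0.18 to -0.04 in the Sim1-het library. With thinned cells the value of the Tcf7l2 gate was -0.24, below that of the Avp gate. The 18 and 2 Oxt-gated cells gave -0.10 ± 0.09. With all UMIs Avp-gated cells were lowest, 23206 against 28755 CPM and 23826 against 26933 CPM (-0.24 ± 0.09). Neighbours in the order from Crh to glia did not differ beyond their SD, which comes from 2 libraries of different genotype and not from replicates.

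Avp RNA took a large part of the UMIs of the Avp-gated cells. It made up 13.1% of the UMIs of these cells in the control and 11.7% in the Sim1-het library. With the 7 gate genes and Gh left out of every total, the members stood at 26892 against 28810 CPM and 27065 against 26967 CPM, a mean log2 ratio of -0.05 in place of -0.24. Removing Avp alone was not tested. With thinned cells and all genes in the total the value was -0.15.

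**Figure D4:**
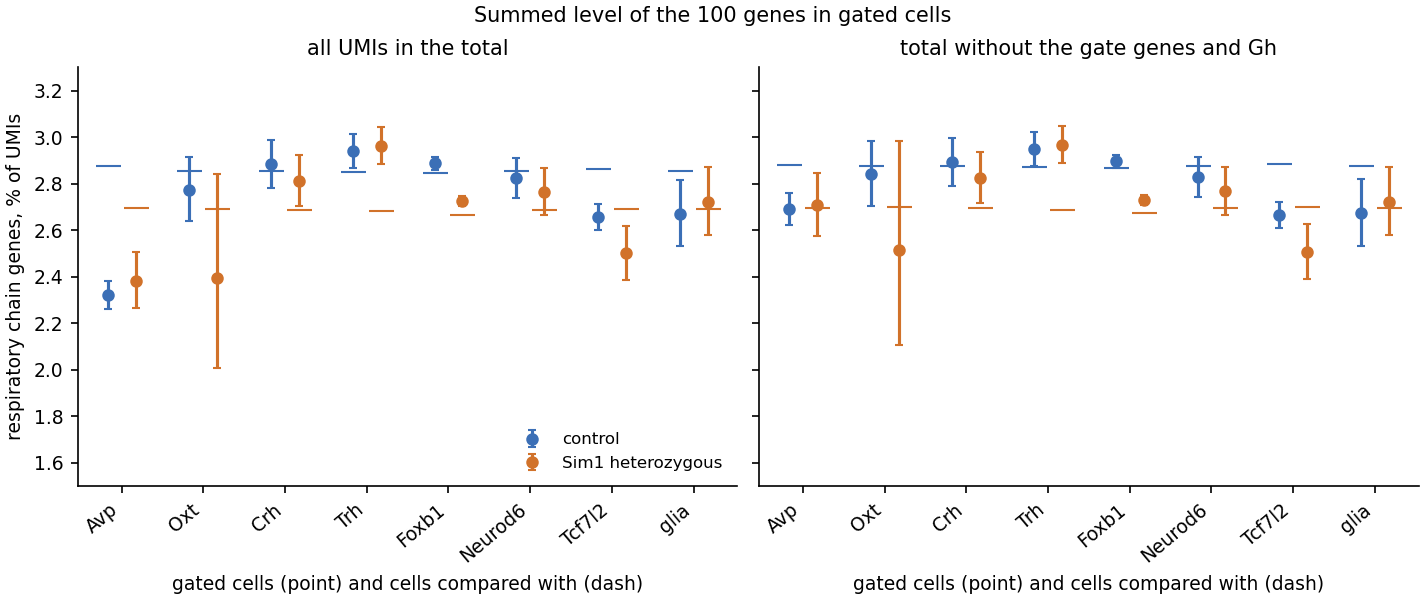
Points give the summed level of the 100 genes as a percent of UMIs in gated cells with 95% counting intervals, and dashes give it in the cells each gate was set against, for the control library (blue) and the Sim1-het library (orange). On the left the total holds all UMIs and the Avp-gated cells lie lowest. On the right, with the gate genes and Gh left out of the total, they lie beside the other gates.

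Members apart from the other cells were counted in each gate, with the share of all genes beside them. These shares were not matched for abundance. At least 1000 UMIs were held by 72 of the 100 members, against 2600 of the 14486 genes tested between the libraries. A member was called when it was at least 1.5-fold from the other cells in the same direction in both libraries. In Avp-gated cells 0 of 100 members were higher (3.49% of all genes tested) and 10 were lower (13.6% of all genes). Cox5a, a matrix-side subunit of complex IV, had 77 UMIs in control and 19 in Sim1 heterozygous Avp-gated cells, or 305 CPM against 627 CPM in other cells and 293 against 567 CPM (log2 ratios -1.03 [-1.39 to -0.72] and -0.91 [-1.68 to -0.30]). Cox6a1 followed with 471 CPM in the control and 448 CPM in the Sim1 heterozygous gated cells (log2 ratios -0.61 and -0.65), Cyc1, the cytochrome c1 of complex III, with 119 and 124 CPM, and Sdhc with 83.1 and 77.2 CPM. Ndufaf4, a complex I assembly factor, had 17 and 4 UMIs. The remaining 5 (Cox6a2, Cox6b2, Ndufaf1, Atp5s and Ndufab1-ps) had 2 UMIs or fewer in each library. Without the gate genes in the total, 6 were lower (Cox5a, Cox6a2, Cox6b2, Ndufaf1, Ndufaf4 and Atp5s) against 9.78% of all genes, and 1 was higher against 5.52%. Taken without a pseudocount, the mean log2 ratio of Cox5a was -0.995, against -0.80 without the gate genes and -0.39 with thinned cells.

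In glia-gated cells members were called in both directions, and the shares of all genes given beside them were not matched for abundance. There 6 members were higher (9.19% of all genes tested) and 7 lower (16.6% of all genes). Uqcr10, a small subunit of complex III, had 29 control and 27 Sim1-het UMIs in glia-gated cells, or 568 CPM against 333 CPM and 542 against 301 CPM (mean log2 ratio 0.77). Ndufa2, an accessory subunit of complex I, stood at 431 against 255 CPM and 462 against 208 CPM (0.90). Sdha, Sdhaf1, Sdhaf2 and Ndufab1-ps were also higher, from 2 to 10 UMIs per library. On the other side, Cox7b, a small subunit of complex IV, stood at 352 against 761 CPM and 321 against 914 CPM (-1.26), and Atp5g1 had 1 and 3 UMIs (-1.47). Ndufa11, Uqcrb, Ndufaf4, Ndufaf5 and Ndufaf7 were lower too. Glia-gated cells were the shallowest, with medians of 1266 and 879 UMIs.

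The other gates held few called members. In Foxb1-gated cells 1 was higher, Cox6a2 (3.64% of all genes tested), and 0 were lower (4.96% of all genes). In Trh-gated cells Cox6a2 and Cox6b2 were lower (8.64% of all genes) and 0 members were higher (2.55%). Crh-gated cells had 3 lower members with 0 or 1 UMI per library, Cox6a2, Cox7b2 and Sdhaf1 (8.62%), and 0 higher ones (2.59%). In Neurod6-gated cells Ndufaf5 (3 UMIs in each library) and Cox6a2 were lower (8.46%) and the pseudogene row Atp5l-ps2 was higher (2.31%). Each lower call of Cox6a2, in the Avp gate too, was against cells that include the Foxb1 gate, which held most of its UMIs. Outside the Foxb1 gate Cox6a2 was at 3.98 CPM in the control and 8.59 CPM in the Sim1-het library. Whether these gates lie below that level was not tested. The Tcf7l2 gate had 2 lower pseudogene rows, Ndufab1-ps and Uqcrh-ps1 (6.07%), and 0 higher members (3.18%). The 20 Oxt-gated cells gave 3 higher (1.64%: Ndufaf3, Ndufaf7 and Ndufab1-ps) and 2 lower (1.87%: Uqcrc2 and Ndufaf2) on 7 UMIs or fewer in each library.

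Complex IV was a little higher in Foxb1-gated cells. Its sum was 8675 CPM against 7948 CPM in the control and 8100 against 7380 CPM in the Sim1-het library (mean log2 ratio 0.13 ± 0.01). Of its 15 members, 8 were above 0 in both libraries, and for 7 of these both intervals left out 0. Cox6a1 stood at 803 against 684 CPM and 806 against 641 CPM (0.23 and 0.33), Cox8a at 800 against 668 CPM and 759 against 647 CPM (0.26 and 0.23), and Cox6c at 924 against 786 CPM and 830 against 704 CPM (0.23 and 0.24). Cox5a, which was low in the Avp gate, stood at 686 against 593 CPM and 619 against 525 CPM. Cox7b went the other way, 699 against 779 CPM and 882 against 936 CPM. In the same gate complex III was at 2483 against 2705 CPM and 2411 against 2489 CPM.

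**Figure D5:**
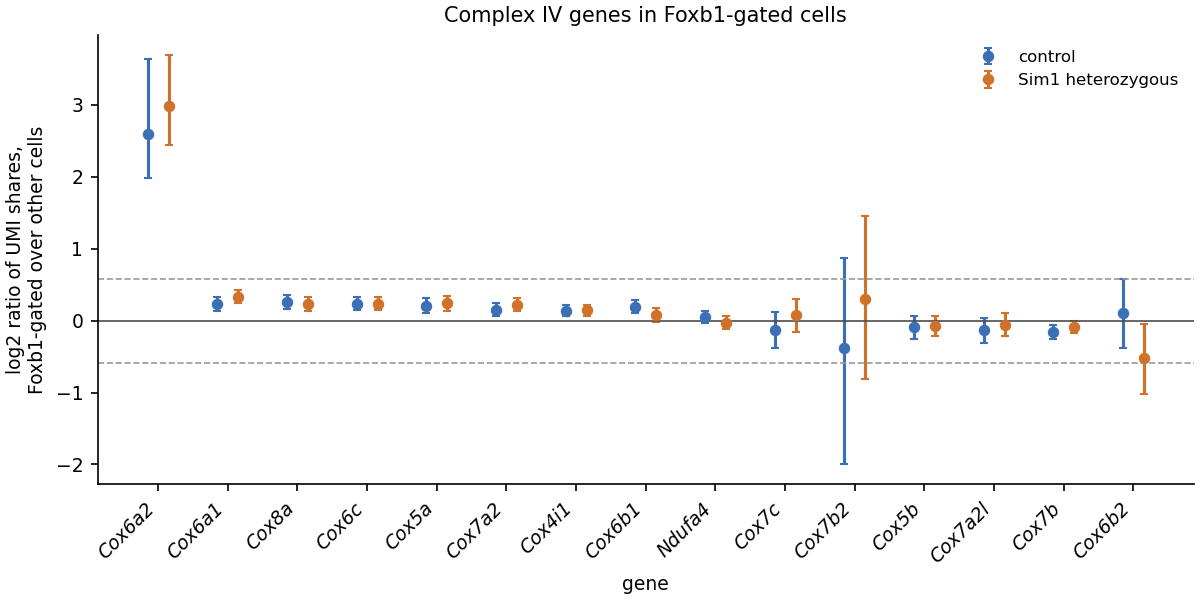
Points give the log2 ratio of Foxb1-gated over other cells for the 15 complex IV genes in the control library (blue) and the Sim1-het library (orange), with 95% counting intervals and dashed lines at 1.5-fold. Cox6a2 is at 2.596 and 2.98, 7 genes including Cox6a1, Cox8a and Cox6c lie a little above 0, and Cox7b lies below it.

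Few genes of other mitochondrial and energy lists were past 1.5-fold between the libraries. The counts below stand against 7.79% of all genes tested that were higher and 9.33% that were lower. Of the 11354 protein-coding genes tested, 892 were higher and 340 lower. The mitochondrial genome encodes the remaining chain subunits, but only 10 of these genes had a row, and 7 of them were tested. These 7 had a median log2 ratio between the libraries of -0.14, and 1 was lower, mt-Nd6 at 60.3 and 37.3 CPM (-0.69). mt-Nd1 stood at 2303 and 1687 CPM and mt-Cytb at 1949 and 2047 CPM. Of 16 genes for cytochrome c, carriers and partners 0 were called (median -0.06), with the adenine nucleotide carrier Slc25a4 at 2589 and 2185 CPM and the ATP synthase inhibitor Atpif1 at 1432 and 1263 CPM. Of 29 assembly genes outside the rule 1 was lower, Sco2 at 34.0 and 21.4 CPM (median 0.04), and Uqcc2 stood at 312 and 326 CPM. Of 79 mitochondrial ribosome genes 1 was lower, Mrps6 at 143 and 88.3 CPM (median -0.09). The tested genes of the citric acid cycle (15, median -0.07) and of protein import (25, median -0.04) had 0 called, with Mdh2 at 432 and 396 CPM and Timm8b at 346 and 298 CPM. Of 16 glycolysis genes 1 was higher, Pgam1 at 11.3 and 18.9 CPM (median 0.16), and Pfkp stood at 363 and 481 CPM. Of 13 regulators of mitochondrial biogenesis 1 was lower, the nuclear receptor Esrrg at 10.5 and 5.62 CPM (median 0.11), and Yy1 stood at 101 and 116 CPM.

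Pseudogenes as a class were lower in the Sim1-het library. The 7 pseudogene rows among the members stood at 122 and 99.7 CPM (log2 ratio -0.29 [-0.45 to -0.13]), and over all 1932 pseudogenes tested the median was -0.44. For 11 of 92 members an annotated pseudogene matched at least 200 of the last 500 transcript bases at 95% identity or more. Reads of these members can be split between copies. The share in copies was 46.3% for Atp5l, 39.0% for Ndufs5 and 32.4% for Atp5h. The copies of Uqcrb had a log2 ratio of -0.49 against 0.01 for the gene, while those of Atp5c1 were at 0.05 against 0.04 and those of Atp5o at -0.11 against -0.03. With the copies added, the sum of the members without pseudogene rows went from -0.08 to -0.09, and 3 members were still higher and 0 lower.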

How the data were processed

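The deposited values are the authors' UMI counts, 1 table a library and 1 merged table, with the same values in both. Per the submitters' processing notes, bcl2fastq, Picard, STAR 2.6.0b and Seurat 3 were used with mm10. The annotation, the use of strand and the rule for taking barcodes as cells were not given in the sources used here. Counts were summed per library and gate and scaled to 1000000 UMIs. Ratios between libraries used a pseudocount of 1 UMI in each. In gates it was 1 UMI in the gated cells and in proportion in the rest, a choice made after first values were seen. Intervals are 95%, exact Poisson for levels, conditional binomial for ratios and Clopper-Pearson for shares. No doublet caller was run, so doublets are taken as present. Gene types and coordinates came from GENCODE M21, which holds 99 of the 100 members. The library ratios, their intervals and their calls were checked on simulated Poisson counts, which hold no spread between cells or pups. The gates, the thinning and the shares were not checked in this way. Named were the 3 members with the most UMIs of each complex, the isoform pairs, members past 1.5-fold, the rows beside the 30 UMI limit, the genes most like Cox6a2, and up to 4 genes a list. Other genes were named after their values were seen. The members and lists were chosen with earlier results of these data known. Alternatives changed the cell filter, gates, totals, pseudocount, minimum and depth. Python 3.11.15, numpy 2.4.6, scipy 1.17.1 and pandas 2.3.3 were used.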

Additional observations from a re-analysis of the deposited data

How the results depend on the processing

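Results are sums over 2 libraries with no replicates, and depth limits the small gates most: 2 Oxt-gated, 19 Tcf7l2-gated and 23 Avp-gated Sim1-het cells. No paired analysis was possible because each genotype has 1 library. Between the libraries, Cox6a2, Atp5g1 and Ndufaf1 stayed the 3 higher members with thinned cells. There 1 member was lower, Sdhaf1 with 50 and 20 UMIs. The summed log2 ratio of -0.09 was -0.11 without the 5% of cells with the most UMIs, -0.13 when centred on the median of all genes, and -0.10 with gated groups weighted alike. Centring gave -0.13 for complex I, -0.15 for complex III, -0.12 for complex IV and -0.11 for complex V. Weighting the 6 groups alike, each by the mean of its UMI shares in the 2 libraries, gave 1.31 for Cox6a2. Its share of the Cox6a UMIs in the Sim1-het library was 5.40% without the deepest cells and 5.99% with thinned cells. Avp-gated cells went from -0.24 to -0.047 without the gate genes in the total and to -0.15 with thinned cells. For the Foxb1 gate the value was 0.019 with a stricter gate and 0.0395 with thinned cells, and for the Neurod6 gate 0.053 with a stricter gate and -0.0013 with cells of several gates kept, which turned its sign. The Tcf7l2 gate gave -0.0896 with a stricter gate, -0.12 with a looser one, -0.11 without the gate genes and -0.24 with thinned cells, which made it lower than the Avp gate. The glia gate turned to 0.0304 with thinned cells. The causes of these shifts were not tested. With a pseudocount split by the mean of the totals, the lower members numbered 14 in the Oxt gate, 7 in the Crh gate and 10 in the glia gate, in place of 2, 3 and 7 (all genes lower: 43.2%, 20.7% and 37.5%). They numbered 4 in the Tcf7l2 gate and 3 in the Neurod6 gate in place of 2 each (14.6% and 18.1%), and the higher ones 2 in place of 1 in the Neurod6 gate, 1 in place of 0 in the Avp gate, 4 in place of 3 in the Oxt gate and 7 in place of 6 in the glia gate. In the remaining alternatives, 92 values moved by less than their counting interval or SD, or, for counts, by less than 1.5 times.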
